A study of Mus musculus with 7 samples.

Results

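The S100 proteins are small calcium-binding proteins of the EF-hand class, and 10 of their genes were followed here among the 12771 genes counted in cancer-associated fibroblasts (CAFs) of mouse pancreatic tumors. The members were taken by symbol: S100a1, S100a4, S100a6, S100a8, S100a9, S100a10, S100a11, S100a13, S100a16 and S100b, all of which had a row. S100a3 and S100a14 were the other family rows, at mean normalized counts of 5.34 and 4.17, and neither differed between the groups by the test used below (DESeq2 adjusted p = 0.92 and 0.96). To ask how silencing of Brca2 in cancer cells bears on the fibroblasts around them, the study injected KPC cells, a mouse pancreatic cancer line, into the pancreas of 8-week-old male C57BL/6 mice. The cells carried a lentiviral hairpin against Brca2 (shBrca2) or a control hairpin (shControl), so that both groups had been transduced and the fibroblasts themselves carried no hairpin. Tumors were taken after 2–3 weeks, and live CD45- CD31- EpCAM- PDPN+ cells were sorted as CAFs, with 1 library from each of 3 shControl mice (replicates 1, 2 and 4) and 4 shBrca2 mice (replicates 1 to 4). 3′ ends of poly(A) RNA were sequenced by a MARS-seq variant, which counts transcripts near their ends. Counts were therefore not divided by transcript length, and levels are compared below between groups. Ratios of 2 genes, and the share of a gene in the counts of the members, are given only to compare the groups.

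Total counts were between 1898679 and 5990579 per library, and the ranges of the groups overlapped. The 10 fibroblast markers were counted in every library, with summed normalized counts of 141776–160327 in shControl and 114500–136186 in shBrca2. Their sum was thus lower in every shBrca2 library. Brca2 itself, which the hairpin targets in the cancer cells only, was at 8.64 to 17.7 normalized counts in the CAFs, with a log2 fold change of -0.03. Of the genes that the sort selected against, Pecam1, which encodes CD31, was at 1.95 to 17.7 in shControl and at 0 to 1.72 in shBrca2, and those for CD45 and EpCAM were not analysed here. Epithelial keratins were higher in shBrca2 CAFs, and 4 of 10 epithelial markers were called higher (thresholds below), against 3.77% of all genes tested. Krt8 was at 84.6, 152 and 168 in shControl against 351 to 462 in shBrca2. The sums over the 10 overlapped (1060–3665 and 2283–3078), but only through Lcn2. That gene was at 642, 2860 and 988 in shControl and at 497 to 1609 in shBrca2, without a call. Macrophage markers summed to 316–355 in shControl and 461–508 in shBrca2, and 3 of 11 were called higher (Csf1r, C1qa and Fcgr3), with Csf1r alone at 86.6–149 and 226–276. Ly6c2 went the other way, at 5.06 to 14.6 in shControl and 0 to 2.91 in shBrca2, but its mean count was too low for a call, and Cd68 and Lyz2 had log2 fold changes of -0.32 and -0.26 without a call. The part of these other cells in the S100 values was not tested, and in RNA from pooled cells, fewer cells of a type and less RNA per cell cannot be told apart.

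Most S100 proteins form dimers that open a binding face for partner proteins when calcium rises. Inside the cell their partners include annexins, myosin and other parts of the cytoskeleton, and on release several of them act on receptors such as RAGE (encoded by Ager) and TLR4. In tumors S100A4, also called fibroblast-specific protein 1, has served as a fibroblast marker, and S100A8 and S100A9 form calprotectin, an abundant protein of neutrophils. Most of the family sits in a gene cluster. 9 of the 10 members lay on chromosome 3, where S100a1, S100a13, S100a16, S100a4, S100a6, S100a8 and S100a9 followed each other within 185 kb, S100a11 and S100a10 lay 2825 kb further on, and S100b lay alone on chromosome 10 (GRCm38.p6, RefSeq).

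3 members fell in shBrca2 CAFs and none rose. S100a13, S100a6 and S100a16 were lower by 1.68-, 1.46- and 1.5-fold, S100a1, S100a4, S100a8, S100a10, S100a11 and S100b did not pass the test, and S100a9 received no p. A gene was called at a DESeq2 adjusted p under 0.1, an absolute log2 fold change over 0.5 and a mean normalized count over 5, the thresholds of the study's methods. Over all genes tested, 5.27% were called lower and 3.77% higher. The same shares are the background for calls in the gene lists below. The 3 called members were also those whose groups did not overlap, as was so for 17.1% of all genes. The median log2 fold change was -0.30 over the 10 members and 0.01 over all genes. The calls were not equally firm. S100a13 was called in each of 13 other fits, S100a6 was not called in 5 and S100a16 was not called in 7.

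**Figure D1:**
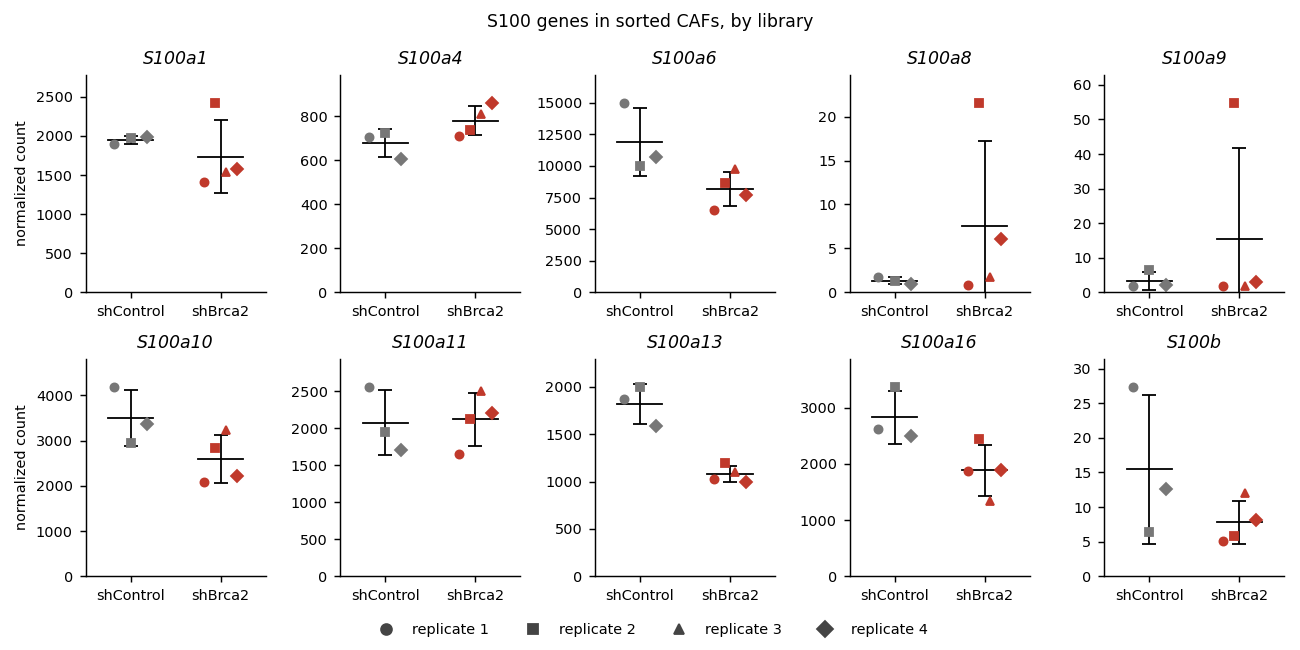
Normalized count of each of the 10 S100 genes (vertical axes, linear, 1 panel a gene) in the 3 shControl and 4 shBrca2 libraries. Points are libraries, their shape is the replicate number, and black bars are the group mean ± SD. S100a13 is at 1583 to 2000 in shControl and 999 to 1194 in shBrca2, whereas S100a8 and S100a9 are set apart by shBrca2 replicate 2 alone.

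**Figure D2:**
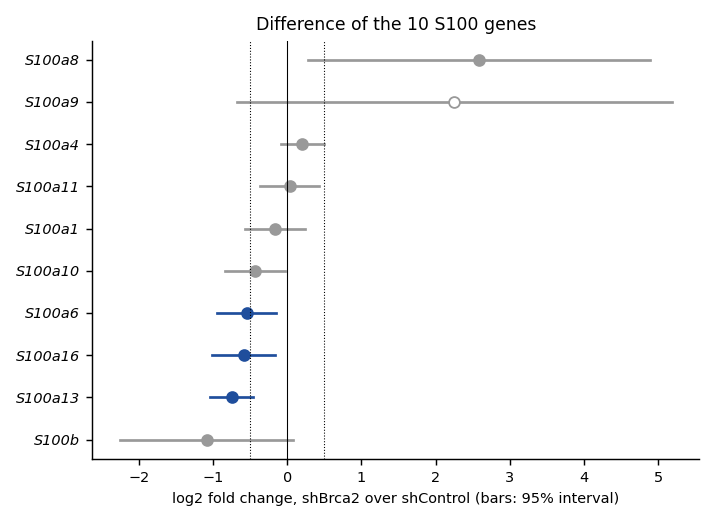
Log2 fold change of shBrca2 over shControl (horizontal axis) for each S100 gene, from DESeq2 on 7 libraries. Bars are 95% intervals, dotted lines mark 0.5 in either direction, blue points are called lower and the open circle is S100a9, which has no p. S100a13 lies at -0.75 with an interval from -1.04 to -0.46, and the intervals of S100a8 and S100a9 are the widest.

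S100A13 binds FGF1 and interleukin 1α and takes part in their release from cells by a route that bypasses the endoplasmic reticulum. Its gene starts head to head with S100a1, whose protein regulates ryanodine receptors and the handling of calcium in muscle. In RefSeq the gene spans overlapped by 98 bases, since S100a13 (90514233–90524581, plus strand) began within S100a1 (90511034–90514330, minus strand). The transcript start on which the promoter window of S100a13 is set lay further on, at base 90514435, which is 105 bases from the S100a1 start at base 90514330. That window (250 bases before to 50 after the start) is shown because this gene carries the firmest difference and shares 204 of its 300 bases with the window of S100a1. Capitals run between these starts, both included, and the window is chr3:90514185-90514484, plus strand, GRCm38.p6.
S100a13: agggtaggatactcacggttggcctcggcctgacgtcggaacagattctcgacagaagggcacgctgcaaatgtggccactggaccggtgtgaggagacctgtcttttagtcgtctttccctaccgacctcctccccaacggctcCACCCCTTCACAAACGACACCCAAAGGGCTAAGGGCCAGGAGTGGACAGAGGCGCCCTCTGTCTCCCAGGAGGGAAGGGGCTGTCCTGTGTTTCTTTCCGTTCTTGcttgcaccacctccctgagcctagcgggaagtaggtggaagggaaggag

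S100a13 was at 1872, 2000 and 1583 normalized counts in shControl replicates 1, 2 and 4. In shBrca2 replicates 1 to 4 it was at 1028, 1194, 1098 and 999. Every shBrca2 library was below every shControl library, and the gap between the groups was wider than the range within shBrca2 and slightly narrower than that within shControl. The mean fell from 1818 ± 214 (SD, n = 3) to 1080 ± 86.8 (SD, n = 4), a log2 fold change of -0.75 ± 0.15 (SE) with a DESeq2 adjusted p of 3.97e-05. Over the other fits the log2 fold change ran from -0.84 to -0.68 and the adjusted p from 3.59e-05 to 0.028.

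S100a1 was at 1895, 1970 and 1992 in shControl and at 1405, 2423, 1541 and 1574 in shBrca2. The lowest and the highest of the 7 values were both in shBrca2, so that the groups overlapped, and on the log2 scale the change was -0.17 ± 0.21 (adjusted p = 0.77 by DESeq2, 95% interval -0.57 to 0.24). It was -0.38 without shBrca2 replicate 2 (adjusted p = 0.16) and -0.08 without shBrca2 replicate 1 (adjusted p = 0.97). The ratio of S100a13 to S100a1 counts, a comparison chosen after these values were seen and given without a test, was 0.987, 1.02 and 0.794 in shControl and 0.732, 0.493, 0.713 and 0.635 in shBrca2. The ratio was lower in each shBrca2 library, with means of 0.932 ± 0.12 and 0.643 ± 0.109. These rows are uncertain in 1 respect. In the GENCODE vM39 annotation 2563 of the 2895 exon bases of S100a1 lay within exons of S100a13 on the other strand, and the sources used here do not state whether reads were counted by strand. Reads from the shared stretch cannot be told apart without it. The extent of that stretch depends on the annotation. GENCODE vM39 is on GRCm39, whereas counting used mm10, on which the RefSeq spans of the genes overlapped by 98 bases. Of these partners of S100A13 only Fgf1 was tested, and it was not called. It was at 143, 197 and 575 in shControl and 345, 305, 477 and 277 in shBrca2 (DESeq2 adjusted p = 0.88 at a log2 fold change of 0.20), and Il1a was not analysed here.

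S100A6, or calcyclin, binds annexins and the calcyclin-binding protein and is abundant in fibroblasts. S100A16 is a widely expressed member that binds calcium weakly. Their promoter windows are shown as those of the other members called lower, with matches to 5 motifs in capitals. The motifs were searched on both strands in all 32817 promoter windows of this length in RefSeq. The TATA box, spelled TATAAA, was held by 13.6% of them. The AP-1 site was searched as TGANTCA and was held by 7.81%. For the GC box, GGGCGG, the share was 35.6%. The CCAAT box, with those letters, had a share of 37.4%. The core of the hypoxia response element, searched as ACGTG, had a share of 19.6%. The S100a6 window is chr3:90612644-90612943, and those of the 2 S100a16 starts are chr3:90537004-90537303 and chr3:90540896-90541195, all on the plus strand of GRCm38.p6.
S100a6: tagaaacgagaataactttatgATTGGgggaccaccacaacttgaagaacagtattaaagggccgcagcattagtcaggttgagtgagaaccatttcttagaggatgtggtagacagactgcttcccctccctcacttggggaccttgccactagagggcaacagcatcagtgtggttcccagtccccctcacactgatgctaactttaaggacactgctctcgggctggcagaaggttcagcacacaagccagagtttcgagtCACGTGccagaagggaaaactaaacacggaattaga
S100a16 start 1: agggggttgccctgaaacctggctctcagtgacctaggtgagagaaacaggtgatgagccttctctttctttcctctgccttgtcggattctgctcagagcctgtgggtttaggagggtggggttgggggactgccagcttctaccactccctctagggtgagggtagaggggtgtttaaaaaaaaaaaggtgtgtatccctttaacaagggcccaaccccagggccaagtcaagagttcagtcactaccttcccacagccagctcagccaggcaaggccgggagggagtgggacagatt
S100a16 start 2: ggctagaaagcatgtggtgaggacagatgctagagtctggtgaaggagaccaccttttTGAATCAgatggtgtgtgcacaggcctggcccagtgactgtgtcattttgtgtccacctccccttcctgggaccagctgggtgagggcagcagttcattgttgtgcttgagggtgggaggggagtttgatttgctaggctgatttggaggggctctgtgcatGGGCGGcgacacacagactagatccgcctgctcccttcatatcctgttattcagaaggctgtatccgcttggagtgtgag
The S100a6 window held a CCAAT box on its minus strand 228 bases before the start and, 14 bases after it, CACGTG, a palindrome in which the hypoxia core matches on both strands. The second S100a16 window held an AP-1 match 192 bases before the start and a GC box 30 bases before it, and the first S100a16 window held none of the 5, nor did that of S100a13. The 3 members called lower thus had no motif of these in common, and a match is a description of letters only.

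S100a6 was at 14995, 10034 and 10740 normalized counts in shControl and at 6549, 8688, 9760 and 7681 in shBrca2. The groups did not overlap, but shBrca2 replicate 3 came close to shControl replicate 2, and shControl replicate 1 stood well above all other libraries. On the log2 scale the change was -0.55 ± 0.20 (adjusted p = 0.075 by DESeq2). Without shControl replicate 1 it was -0.35 with an adjusted p of 0.49, and the call was also lost without shBrca2 replicate 1 or 4 (adjusted p = 0.34 and 0.25) and by edgeR's quasi-likelihood test (adjusted p = 0.13). S100a6 made up 47.8% ± 4.18 of all counts of the 10 members in shControl and 44.3% ± 2.61 in shBrca2. The sum of the 10 members, which it thus weighs on most, took 0.699% ± 0.105 of all counts in shControl and 0.560% ± 0.0586 in shBrca2. Cacybp, which encodes the calcyclin-binding protein, was at 116 to 183 in shControl and 102 to 174 in shBrca2 (DESeq2 adjusted p = 0.92 at a log2 fold change of 0.08).

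S100a16 was at 2624, 3369 and 2488 in shControl and at 1874, 2439, 1333 and 1883 in shBrca2. The groups were separated only narrowly, since the highest shBrca2 library, replicate 2, lay just under the lowest shControl library, replicate 4. It changed by -0.58 ± 0.22 on the log2 scale (adjusted p = 0.078 by DESeq2), and the call was lost without shControl replicate 1 or 2 (adjusted p = 0.13 and 0.27), without shBrca2 replicate 1, 3 or 4 (adjusted p = 0.23, 0.17 and 0.21) and by edgeR (adjusted p = 0.12). In these fits the log2 fold change ran from -0.64, without shControl replicate 1, to -0.44, without shControl replicate 2.

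**Figure D3:**
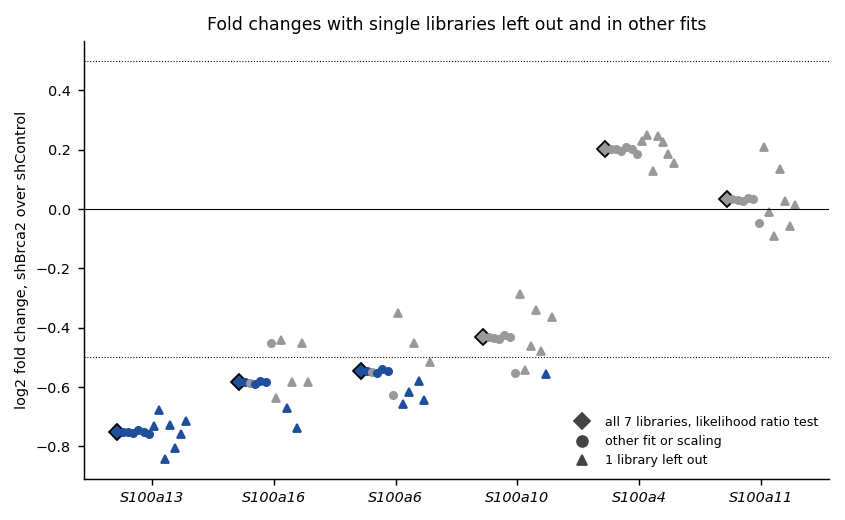
Log2 fold change of shBrca2 over shControl (vertical axis) for 6 S100 genes in the fit of all 7 libraries (diamonds), with other tests or settings (circles) and with 1 library left out (triangles). Blue marks a fit in which the gene is called. S100a13 is blue throughout, between -0.84 and -0.68, S100a6 and S100a16 are blue in some fits only, S100a10 is blue in 1, and S100a11 lies on both sides of 0.

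S100A10 and S100A11 work chiefly through annexins. S100A10, or p11, no longer binds calcium and forms a complex with annexin A2 at the plasma membrane that binds tissue plasminogen activator and plasminogen. S100A11 binds annexin A1. S100a10 was at 4188, 2958 and 3367 normalized counts in shControl and at 2095, 2830, 3242 and 2228 in shBrca2. Replicate 3 of shBrca2 reached into the shControl range, and the other 3 shBrca2 libraries lay under every shControl library. On the log2 scale the change was -0.43 ± 0.20 (adjusted p = 0.22 by DESeq2). S100a10 was called lower only when shBrca2 replicate 3 was left out (log2 fold change -0.56, adjusted p = 0.073), and without shControl replicate 1 its log2 fold change was -0.29 (adjusted p = 0.67). Its partner Anxa2 was at 5969, 6924 and 5531 in shControl and 5993, 7080, 6102 and 5934 in shBrca2, a change of 0.03 ± 0.14 on the log2 scale (adjusted p = 0.95 by DESeq2). The ratio of S100a10 to Anxa2 counts was 0.702, 0.427 and 0.609 in shControl and 0.350, 0.400, 0.531 and 0.375 in shBrca2. The ranges overlapped, and the difference of -0.47 in the mean log2 ratio had p = 0.11 in a two-sided exact permutation test (Benjamini-Hochberg adjusted p = 0.17 over the 3 ratios tested), where 35 divisions of 7 libraries allow no p under 0.057.

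S100a11 was at 2560, 1956 and 1708 in shControl and at 1649, 2129, 2508 and 2208 in shBrca2. The groups overlapped over nearly their whole range (DESeq2 adjusted p = 0.95 at a log2 fold change of 0.03 ± 0.20), and the 95% interval, -0.36 to 0.43, holds changes of up to about 0.4 in either direction. Its window held 2 AP-1 matches, 3 GC boxes and the hypoxia core. Anxa1 was at 3673, 2105 and 3229 in shControl and 1945, 2896, 2375 and 2034 in shBrca2 (DESeq2 adjusted p = 0.39 at a log2 fold change of -0.38). Of the 8 annexins with a row in the list of S100 partners, 1 rose and 1 fell, and the median of their log2 fold changes was -0.04. Anxa8 was at 93.1, 173 and 224 in shControl and 307, 321, 406 and 261 in shBrca2, and rose by 0.99 ± 0.28 on the log2 scale (DESeq2 adjusted p = 0.014). Anxa3 was at 956, 544 and 652 in shControl and 334, 500, 275 and 365 in shBrca2, and fell by 0.96 ± 0.25 (adjusted p = 0.0047).

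S100A4 binds nonmuscle myosin IIA and favors cell movement. S100a4 was at 703, 722 and 605 normalized counts in shControl and at 711, 739, 810 and 860 in shBrca2. Replicates 3 and 4 of shBrca2 were the highest, and replicate 1 fell within the shControl range. On the log2 scale the change was 0.20 ± 0.15 (adjusted p = 0.54 by DESeq2, 95% interval -0.09 to 0.50), and without shControl replicate 4 it was 0.13. Myh9, the gene of the myosin heavy chain it binds, was at 1409, 2838 and 1838 in shControl and 2101, 1653, 1710 and 1775 in shBrca2 (DESeq2 adjusted p = 0.81 at a log2 fold change of -0.16). The S100a4 exons share 302 of 908 bases with the predicted gene Gm42674 on the same strand in GENCODE vM39, and reads there could be assigned to either gene.

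The study stained human pancreatic tumors for S100A4 and podoplanin among other candidate markers of CAFs and took neither further. In those patients it found S100A4 mainly on immune cells positive for CD45. Podoplanin was found on part of the CAFs that stained for smooth muscle actin. In the mouse tumors podoplanin was the protein on which the cells were sorted. Pdpn was at 652, 600 and 670 in shControl and 561, 590, 549 and 457 in shBrca2 (DESeq2 adjusted p = 0.42 at a log2 fold change of -0.25 ± 0.15). The ratio of S100a4 to Pdpn counts was 1.08, 1.20 and 0.903 in shControl and 1.27, 1.25, 1.47 and 1.88 in shBrca2. Every shBrca2 ratio lay above every shControl ratio, replicates 1 and 2 only slightly so. The mean log2 ratio was 0.08 ± 0.21 (SD, n = 3) and 0.53 ± 0.27 (SD, n = 4), a difference of 0.46 with p = 0.057 in the two-sided exact permutation test, the smallest it can give, and an adjusted p of 0.17 over the 3 ratios. Since the cells were gated on podoplanin, the ratio describes sorted cells and not the tumor.

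**Figure D4:**
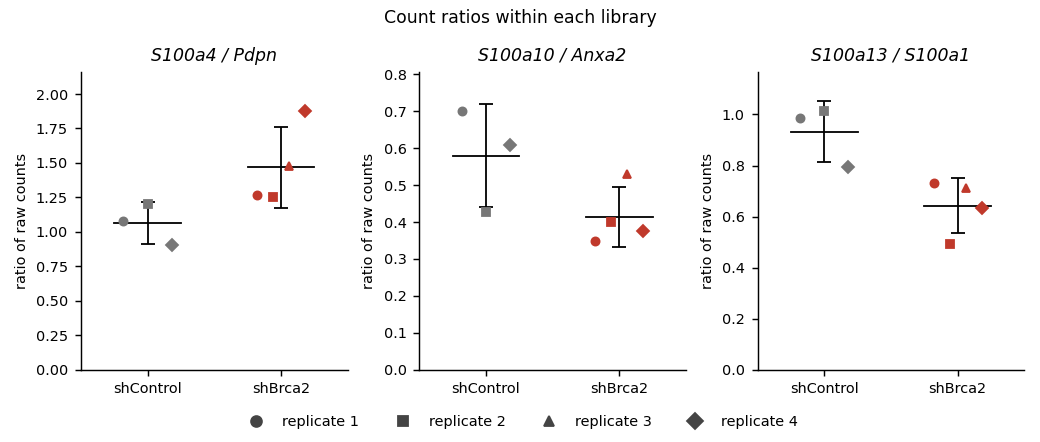
Ratios of raw counts within a library (vertical axes, linear) for S100a4 over Pdpn, S100a10 over Anxa2 and S100a13 over S100a1, in the 3 shControl and 4 shBrca2 libraries. Points are libraries, shapes are replicate numbers, and black bars are the mean ± SD. The groups are apart for S100a4 over Pdpn (0.903 to 1.20 against 1.25 to 1.88) and for S100a13 over S100a1 (0.794 to 1.02 against 0.493 to 0.732), and overlap for S100a10 over Anxa2.

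S100A8 and S100A9 are released by neutrophils and monocytes as calprotectin, which binds TLR4 and RAGE. Both genes were near the limit of detection in 6 of the 7 libraries. S100a8 had 2, 1 and 1 raw counts in shControl and 1, 37, 1 and 6 in shBrca2. S100a9 had 2, 5 and 2 in shControl and 2, 94, 1 and 3 in shBrca2. Thus 37 of the 45 S100a8 counts and 94 of the 100 S100a9 counts of shBrca2 came from replicate 2, also the deepest library, in which normalized counts were 21.6 and 54.8 against at most 6.10 and 6.33 in any other. S100a8 had a log2 fold change of 2.58 ± 1.17 (adjusted p = 0.19 by DESeq2) that was 1.14 without that library. S100a9 received no p because that library exceeded the Cook's distance limit of DESeq2. With that filter off its adjusted p was 0.51 (log2 fold change 2.25 ± 1.5), and without the library the log2 fold change was -0.56 (adjusted p = 0.93). The log2 ratio of S100a8 to S100a9 counts differed by 0.45 between the groups (two-sided exact permutation p = 0.57), by 0.81 without shControl replicate 1 and by 0.018 without shControl replicate 2. It was 0.80 without shBrca2 replicate 2 and 0.088 without shBrca2 replicate 4.

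Of the 9 neutrophil markers counted, Ngp, Ltf, Camp and Wfdc21 were also highest in that library and the other 5 were not. Ngp was at 34.4 normalized counts in shBrca2 replicate 2 and at 0 to 2.03 elsewhere, Ltf at 6.99 against 0 to 1.02, Camp at 15.7 against 0.854 to 4.07, and Wfdc21 at 9.91 against 0 to 6.33. Mpo was highest in shBrca2 replicate 3 (39.7, against 13.4 in replicate 2), Il1b in shBrca2 replicate 1 (12.0 against 6.41), Mmp8 in shControl replicate 4 (32.1 against 28.6), Mmp9 in shControl replicate 1 (24.8 against 14.6) and Lcn2 in shControl replicate 2 (2860 against 1609). Of the 18 markers listed, 9 had no row, none of the 9 counted was called, and Ngp had no p. The summed level of the list was 712–2926 in shControl and 573–1739 in shBrca2, nearly all of it Lcn2, which epithelial cells also express. Without Lcn2 the other 8 genes summed to 41.8–69.2 in shControl and to 75.7, 130, 60.4 and 60.0 in shBrca2 replicates 1 to 4. Ly6g, Cxcr2 and Csf3r, which define neutrophils, were not analysed here. The part of neutrophils in the S100a8 and S100a9 counts was not tested.

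**Figure D5:**
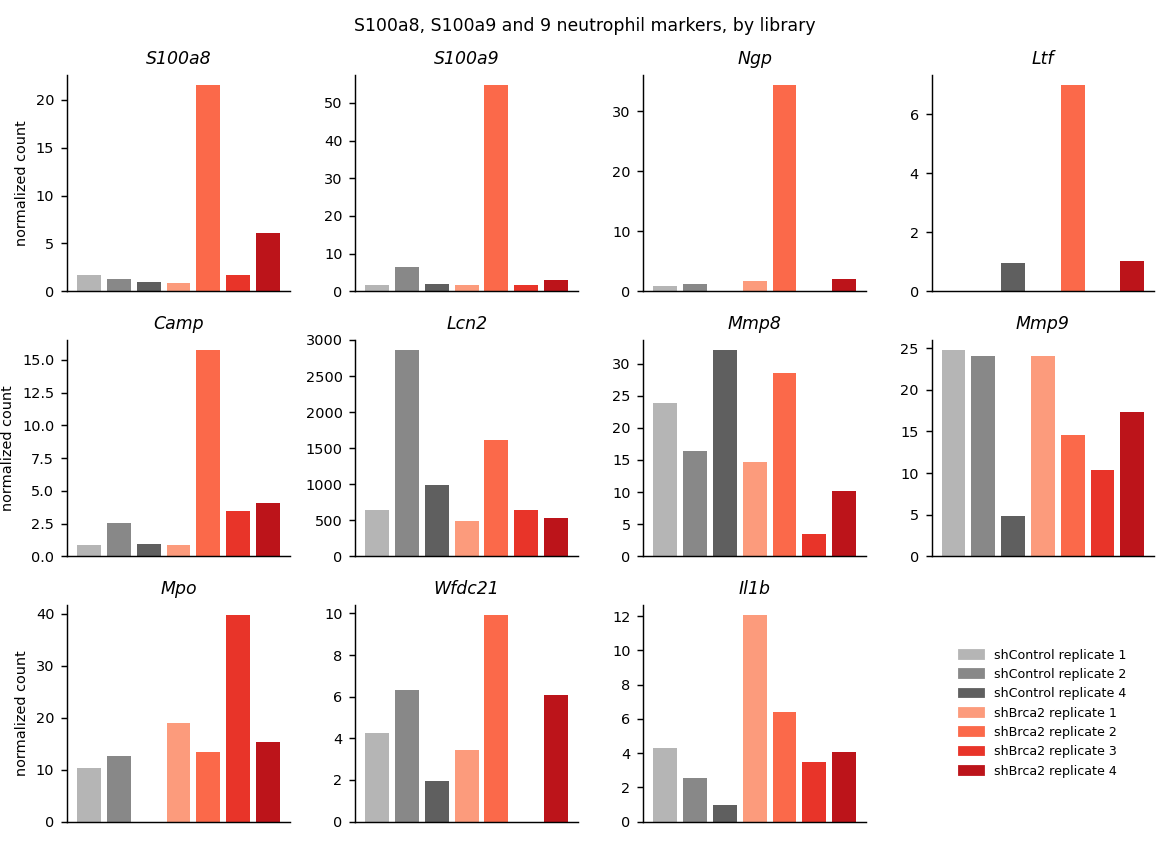
Normalized counts (vertical axes, linear from 0, each panel with its own scale) of S100a8, S100a9 and the 9 neutrophil markers in the table, with 1 bar for each of the 3 shControl and 4 shBrca2 libraries. S100a8, S100a9, Ngp, Ltf, Camp and Wfdc21 are highest in shBrca2 replicate 2, and Mpo, Il1b, Mmp8, Mmp9 and Lcn2 are highest in other libraries.

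S100B marks glia, Schwann cells among them. S100b had 32, 5 and 13 raw counts in shControl and 6, 10, 7 and 8 in shBrca2, or 27.3, 6.33 and 12.6 against 5.16, 5.83, 12.1 and 8.13 normalized counts. The groups overlapped, and shControl replicate 1 was far above the rest. On the log2 scale the change was -1.09 ± 0.59 (adjusted p = 0.33 by DESeq2), and without that library it was -0.38. Of 12 Schwann cell markers 6 were in the table, and the others were not analysed here. Sox10, the glial transcription factor, was at 5.13, 3.80 and 0.973 in shControl and at 0 to 1.73 in shBrca2, with no call, whereas Erbb3, Ngfr and Mbp had log2 fold changes above 0 (1.08, 0.80 and 0.18) and were not called either. Cnp was at -0.33 without a call, and Pmp22, which fibroblasts also express, was called lower (DESeq2 adjusted p = 3.37e-05 at a log2 fold change of -1.06). The list summed to 907–1333 in shControl and 587–767 in shBrca2, most of it Pmp22, and the median log2 fold change of its 6 genes was -0.07.

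Among genes of the surface receptors for released S100 proteins, 9 of 12 had a row, of which 1 rose and none fell, and the median of their log2 fold changes was 0.33. Cd14, a co-receptor of TLR4 also found on macrophages, was at 29.9, 62.0 and 130 in shControl and at 181, 147, 211 and 146 in shBrca2, an increase of 1.21 ± 0.38 on the log2 scale (DESeq2 adjusted p = 0.034). Ager was at 21.5 to 34.0 in shControl and 24.1 to 29.4 in shBrca2 (log2 fold change 0.07, adjusted p = 0.95). Tlr4 was at 3.80 to 12.0 in shControl and 6.88 to 12.1 in shBrca2 (log2 fold change 0.33, adjusted p = 0.88).

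Of the genes of intracellular and released S100 targets, 12 of 17 had a row, of which 1 rose and 1 fell, and the median of their log2 fold changes was 0.10. Plaur, the urokinase receptor of the plasminogen system, was at 327, 547 and 333 in shControl and 765, 865, 684 and 857 in shBrca2. All shBrca2 libraries were above all shControl libraries, and on the log2 scale the change was 0.98 ± 0.22 (adjusted p = 0.00047 by DESeq2). Ahnak, a giant scaffold protein bound by the complex of S100A10 with annexin A2, was at 1470, 1152 and 1671 in shControl and 911, 933, 1149 and 836 in shBrca2. It fell by 0.58 ± 0.18 on the log2 scale (adjusted p = 0.027), with replicate 3 of shBrca2 just below the lowest shControl library.

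Calcium binders of the EF-hand class outside the family were examined beside the S100 genes. Of 26 such genes, 1 was called higher and 1 lower, and the median of their log2 fold changes was -0.13. Nucb2, a calcium-binding protein of the Golgi, was at 728, 596 and 615 in shControl and 422, 507, 430 and 385 in shBrca2 (DESeq2 adjusted p = 0.013 at a log2 fold change of -0.57 ± 0.17). Calb2, or calretinin, which mesothelial cells also express, was at 0 in all 3 shControl libraries and at 26.7, 8.16, 38.0 and 8.13 in shBrca2, and was called higher (adjusted p = 2.84e-06). Mesothelial markers (8 of 9 in the table) and endothelial markers (6 of 8) included no call, and of 4 adipocyte and cartilage markers Sox9 was called higher and Comp lower. Of the 10 fibroblast markers Dcn and Lum were called lower, with log2 fold changes of -0.77 and -1.18.

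Likeness to a member was measured over the 7 libraries as Pearson's r of log2(normalized count + 1), among 9055 genes with a mean over 20, and is given as a description. The libraries share 2 groups and differ in depth, and with 7 points many genes reach a high r. The 3 genes most like S100a13 were Galnt16 (r = 0.99), Il11ra1 (r = 0.99) and Nkx2-3 (r = 0.99), whose log2 fold changes were -1.83, -1.14 and -1.37. Those most like S100a6 were Sft2d1, Ogn and Mtln (r = 0.99, 0.98 and 0.98). Ogn, a small proteoglycan of the matrix, was at 349, 78.4 and 106 in shControl and 20.7, 54.8, 70.8 and 21.3 in shBrca2, with shControl replicate 1 at the top as in S100a6. Dnmt3l, Slc2a8 and Vamp2 were most like S100a16 (r = 0.99, 0.98 and 0.98), and none of them was called. S100a4 was most like Ajuba, Mb21d2 and Dera (r = 0.97, 0.96 and 0.95), and S100a8, whose r rests on 1 library, was most like Dcaf10, Nsdhl and Stx7 (r = 0.96, 0.93 and 0.92).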

How the data were processed

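Sorted CAFs from 3 shControl and 4 shBrca2 tumors were compared. The authors deposited 1 table of raw counts per gene symbol and library. According to the submitters' processing notes, bcl2fastq, cutadapt, STAR 2.4.2a, HTSeq and DESeq2 were used with the mm10 genome. Strand handling and the collapsing of molecular barcodes are not given in the sources used here, so counts may include PCR copies. All libraries differed from each other by more than the sampling noise of independent counts, with a mean chi-square per gene of at least 3.35. That lowest value was between shBrca2 replicates 1 and 4, and the other shBrca2 pairs were at 8.01 to 13.2. PCR copies would raise these values. Groups were taken from the silencing status in the labels.

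Counts were tested with DESeq2 1.42.0 (R 4.3.3) by a likelihood ratio test of group over all 7 libraries, with median-of-ratios size factors, no covariate, unshrunken fold changes and Benjamini-Hochberg adjustment over 12768 genes with a p. Normalized counts are counts divided by the size factor. The code was tested on simulated data. Alternatives were edgeR 4.0.16 (quasi-likelihood), a Wald test, TMM factors, a mean count of 10 or more, no Cook's filter, a replicate block, an adjusted p under 0.05, and leaving out each library. Ratios were log2((count + 1)/(count + 1)) and were compared by two-sided exact permutation over 35 divisions (scipy 1.17.1).

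The 10 members and 12 gene lists (annexin partners, S100 receptors, S100 targets, other EF-hand proteins and 8 lists of cell type markers) were chosen with earlier results of these data known. Named were all members, at most 8 called genes of a list, Anxa2, Pdpn, Ager, Tlr4 and Myh9, and the 3 genes most like S100a4, S100a8 and each called member. Other genes of the lists, and Brca2, were named after their values were seen. Positions and promoter windows came from RefSeq tables of GRCm38.p6, the same assembly as mm10, and 9 of the 10 members had a window. Exon overlaps came from GENCODE vM39 (GRCm39). Protein sequences were not used here.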

Additional observations from a re-analysis of the deposited data

Results flagged for a closer look

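In 13 groups of 4 libraries tested (the 10 members and 3 ratios in shBrca2), Dixon's test at the 95% level set apart 1 library in 2 of them, where chance sets one apart in about 1 of 20 groups. S100a1 in shBrca2 replicate 2 was at 2423 normalized counts against 1405 to 1574 in the other shBrca2 libraries, a gap of 0.834 of the group's range, just over the critical value of that test. S100a9 in the same library was at 54.8 against 1.72 to 3.05, a gap of 0.975 of the range. The groups of 3 shControl libraries were not tested in this way.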

How the results depend on the processing

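S100a13 kept its call in all 13 alternatives. The number of members called was 3, and it was 1 by edgeR, with the replicate block and at an adjusted p under 0.05, and 1 to 3 when each library was left out. Of all genes, 481 were called higher and 673 lower, 211 and 280 with the replicate block, and 261 to 610 and 354 to 695 when each library was left out. They moved by over 1.5 times without shControl replicate 1 (264 and 366), shBrca2 replicate 1 (261 and 354) or shBrca2 replicate 4 (290 and 372), each of which also left S100a13 as the only member called, and without shControl replicate 4 for lower genes (418). Same-numbered libraries did not deviate together (correlations -0.09, -0.13 and -0.14), and the other pairs ran from -0.15 to 0.26. So few pairs cannot settle whether libraries of a number share a day or batch, which was not tested. With the replicate block S100a6 (log2 fold change -0.63, adjusted p = 0.19) and S100a16 (-0.45, adjusted p = 0.36) were not called. S100a9 changed direction without shBrca2 replicate 2 (log2 fold change -0.56, and up to 3.09 over the libraries left out). S100a11 changed direction with the replicate block (-0.046) and ran from -0.091 to 0.21 over the libraries left out. The cause was not tested. S100a8 and S100a9 had no value in the edgeR fit, nor S100a8 at a mean count of 10 or more, because the filter removed them. Depth limits S100a8, S100a9 and S100b, which had single-digit counts in most libraries.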
